A study of Mus musculus with 8 samples.

Results

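Keratins are the intermediate filament proteins of epithelia, and 48 keratin genes were measured among the 19752 genes named by the arrays of this series. They were chosen by name: every gene whose symbol is Krt followed only by digits, taken from rows that the platform annotation pairs with a single symbol. Each of the 48 had 1 row, so the choice of the brightest row per gene, the only measured value the rule uses, removed nothing. Another 4 keratins whose symbols end in a letter lie outside the rule.

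The samples were whole tibialis anterior (a shin muscle made mostly of fast fibres) from male C57BL/6 mice, collected 8 days after the muscle had been frozen with a cold metal probe for 8 seconds. All mice carried Foxp3-Cre, which acts in regulatory T cells. There were 4 samples with a floxed ST2 gene (ST2 FL/Foxp3-Cre, called flox) and 4 with wild-type ST2 (ST2 WT/Foxp3-Cre, called WT), and ST2 is the receptor for interleukin-33. The age is 10 weeks in the sample labels and 2 months in the text on the series. The labels do not say that each sample came from its own animal, so each p-value rests on sample-to-sample spread that could be technical in part or whole.

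Keratin filaments are built from pairs of an acidic type I and a basic type II chain, and the pair in use marks the kind of epithelium. Basal cells of the epidermis make Krt5 with Krt14, and the cells above them switch to Krt1 with Krt10 as they differentiate. Simple, single-layered epithelia make Krt8 with Krt18, and hair follicles use large families of their own in the hair shaft and the inner root sheath. Skeletal muscle fibres hold mainly desmin filaments, and most keratins have no known role in the fibre itself.

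Markers of the labelled tissue were present at high signal on every array. Of the 12 fast skeletal muscle genes listed, all 12 were measured, and their mean log2 level lay between 13.04 and 13.22 on the 7 arrays other than WT array 4 and was 13.18 on that array. Median intensity per array was 185 to 189. Many keratin probes gave low signal: 21 of 48 had a mean log2 level under 6.35, the 25th percentile of the table, and 4 (Krt8, Krt18, Krt80 and Krt87) lay above the 50th percentile (7.54). The arrays carry no detection call, so it is not known which of the dim keratins were above background. Because probes respond differently, these ranks describe probe signal and not relative expression, and the comparisons below are between arrays for the same gene.

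Epidermal keratins stood far higher on WT array 4 than on the other 7 arrays. Values here are log2 RMA intensity. Krt10, the type I chain of differentiating epidermis, was at 6.85, 6.89, 7.15 and 7.25 on flox arrays 1 to 4, at 7.15, 7.13 and 7.20 on WT arrays 1 to 3, and at 9.66 on WT array 4. Krt1, its type II partner, was at 5.09, 5.44, 5.55 and 5.71 on the flox arrays, at 5.51, 5.52 and 5.56 on WT arrays 1 to 3, and at 8.12 on WT array 4. Krt77, a type II chain also placed in the epidermis above the basal layer, was at 6.92, 6.91, 6.92 and 7.21 on the flox arrays, at 7.08, 7.19 and 7.13 on WT arrays 1 to 3, and at 9.03 on WT array 4. In all of these genes WT array 4 was alone, and the other 7 arrays spanned no more than 0.62 log2.

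The basal pair showed the same array as the highest, by less. Krt5 was at 6.47, 6.63, 6.78 and 7.08 on the flox arrays, at 6.80, 6.80 and 6.59 on WT arrays 1 to 3, and at 8.49 on WT array 4. Krt14 was at 6.03, 6.17, 5.99 and 6.43 on the flox arrays, at 6.40, 6.11 and 6.20 on WT arrays 1 to 3, and at 7.28 on WT array 4. The flox arrays overlapped with WT arrays 1 to 3 in both genes.

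**Figure D1:**
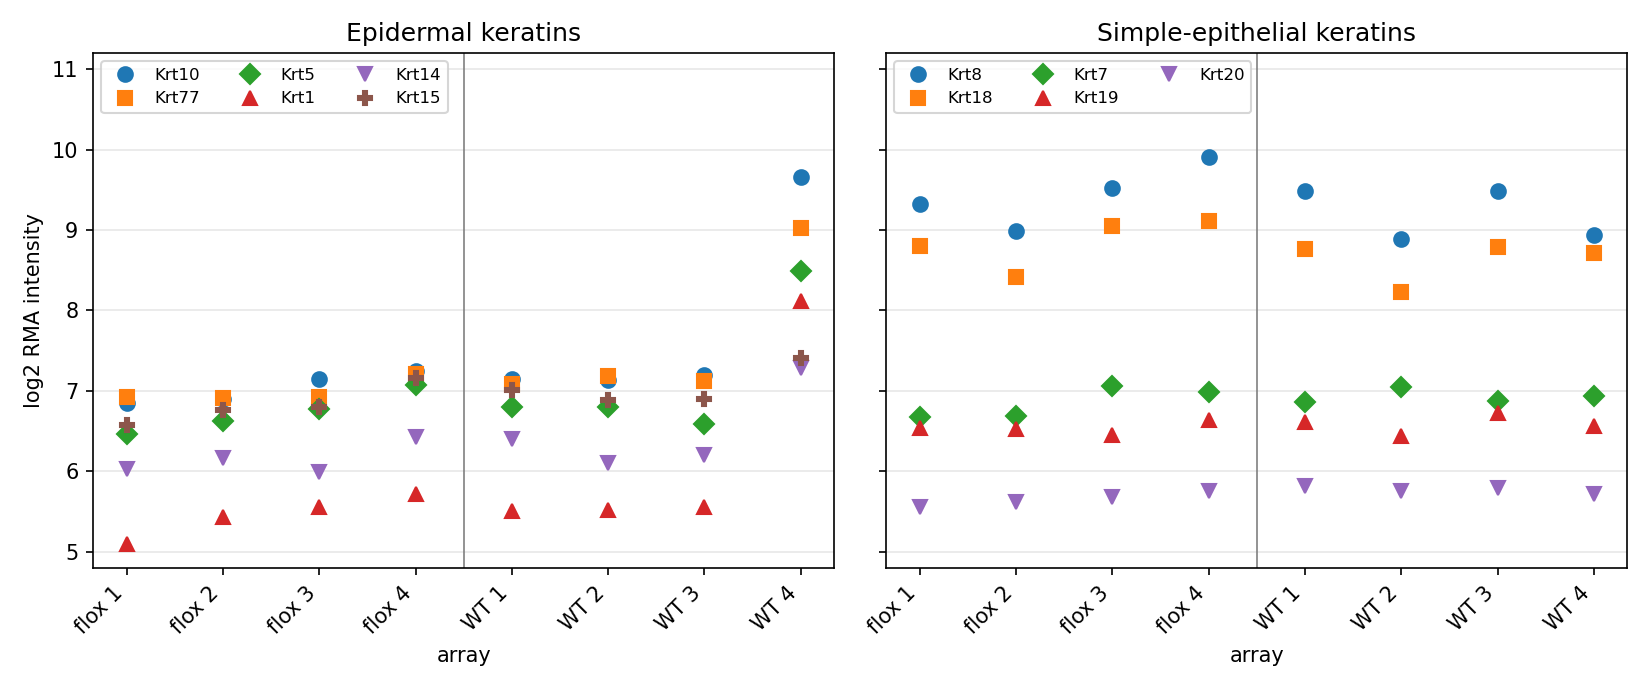
Log2 RMA intensity (vertical axis) of 6 epidermal keratins (left) and 5 simple-epithelial keratins (right) on each of the 8 arrays, 1 point per gene and array, with flox arrays left of the grey line and WT arrays right of it. Krt10 reaches 9.66 and Krt1 8.12 on WT array 4, while Krt8 runs from 8.89 to 9.91 with no step up on that array.

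As a measure of how far 1 array stood from the rest, the log2 level on that array was compared with the median of the other 7. A single array has no replicate, so this excess is a value with no test. The excess of WT array 4 was 2.60 for Krt1 (6.06-fold), 2.51 for Krt10 (5.70-fold), 1.95 for Krt77 (3.85-fold), 1.71 for Krt5 (3.26-fold) and 1.11 for Krt14 (2.16-fold). These 5 were the keratins at least 1.5-fold above the other arrays on WT array 4, where 0.289% of all genes were (57 of 19752). Just below that fold were Krt17, a chain of stressed and follicular epithelium, at 0.54 and Krt15, another basal chain, at 0.52. On each of the other 7 arrays 0 keratins lay at least 1.5-fold above the median of the rest. The share of all genes that did so was 0.815%, 0.871%, 0.172% and 0.0962% on flox arrays 1 to 4, and 0.0506%, 0.248% and 0.0608% on WT arrays 1 to 3. In a ranking of all genes by their excess on WT array 4, Krt1 and Krt10 were at places 2 and 3, Krt77 at 8, Krt5 at 12 and Krt14 at 22. The pattern had been seen in earlier results on these data, so the excess describes this array and supports nothing further.

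In whole tissue, more cells of a type and more RNA per cell cannot be told apart. The partners moved by like amounts in the suprabasal pair (2.60 for Krt1 and 2.51 for Krt10) and by less like amounts in the basal pair (1.71 for Krt5 and 1.11 for Krt14). Over the 8 arrays Krt14 was dimmer than the 25th percentile, as was Krt1, and no detection call is given for either.

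Not every epidermal keratin followed. Krt2, a chain of the uppermost living layers in some skin sites, was 0.01 lower on WT array 4 than the median of the others (an excess of -0.01), with levels of 5.76 to 5.95 on the other arrays. Krt9, a keratin of palm and sole skin, had an excess of 0.13, and Krt78, another suprabasal chain, one of -0.13. The median excess was 1.11 over the 3 basal epidermal keratins and 1.04 over the 6 suprabasal ones, against 0.06 over all 48 keratins and 0.01 over all genes.

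**Figure D2:**
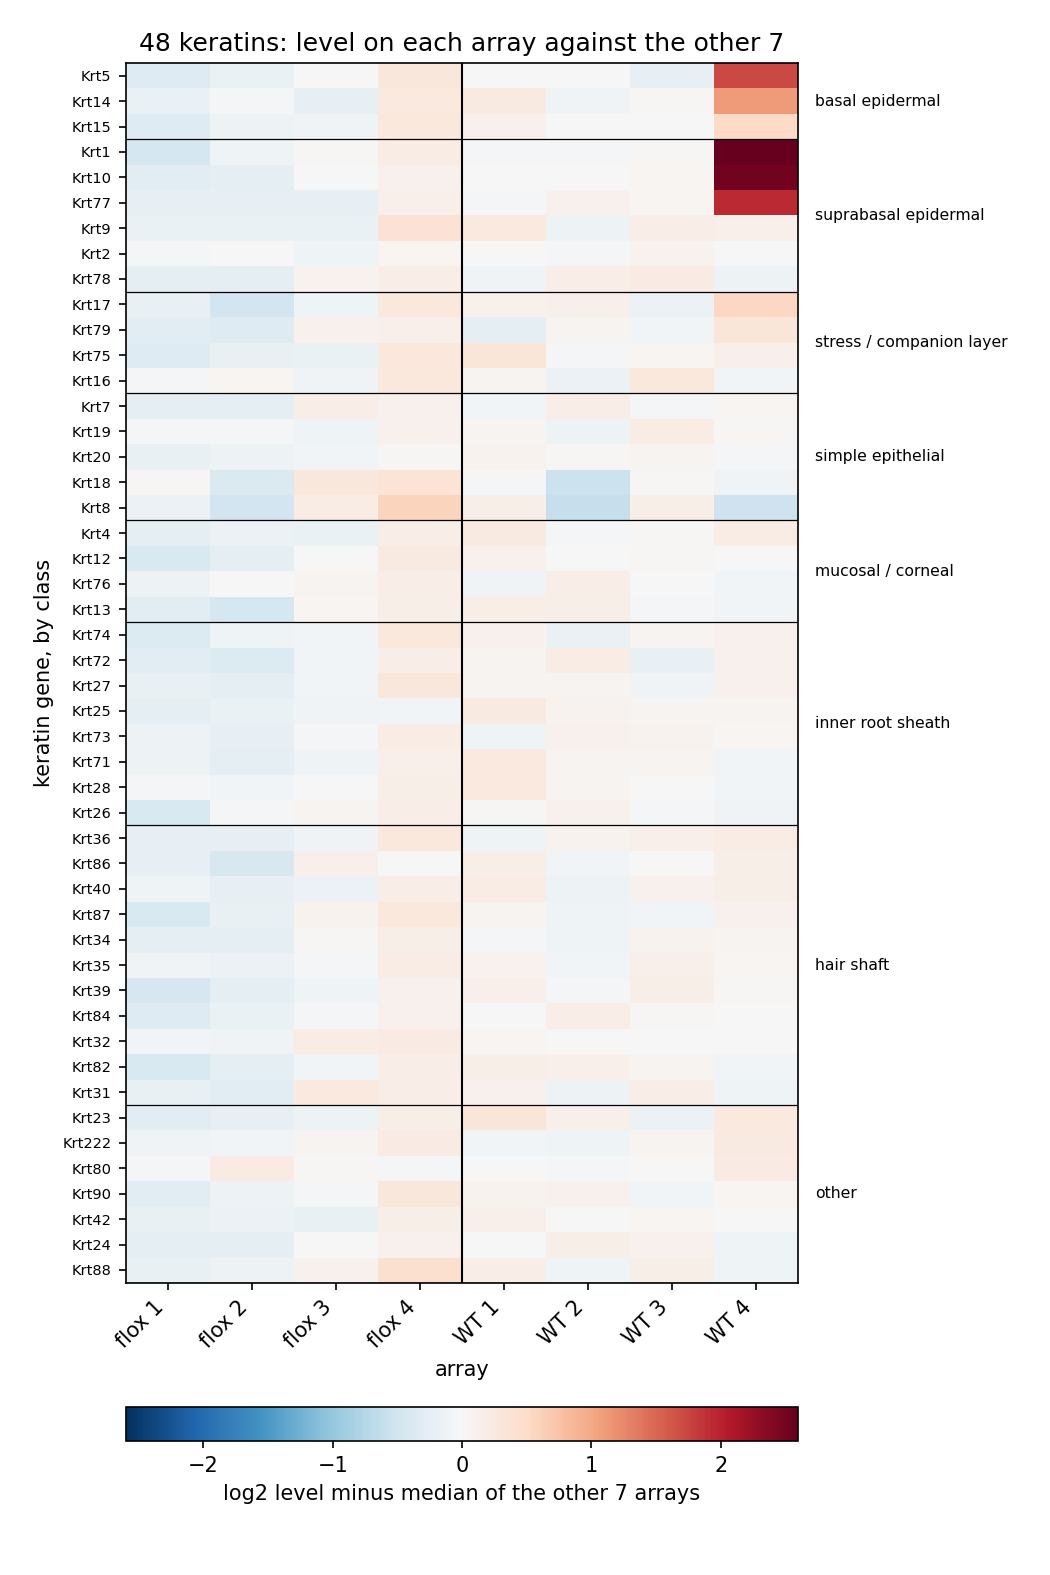
Log2 level of each of the 48 keratins (rows, grouped by class and ordered by the excess on WT array 4) on each of the 8 arrays (columns), as the difference from the median of the other 7 arrays. The dark red block is Krt1, Krt10, Krt77 and Krt5 on WT array 4, with excesses of 1.71 to 2.60, and flox array 1 is pale blue for most rows.

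Hair keratins did not take part in the step. The 8 inner root sheath keratins, which shape the growing hair, had excesses of -0.09 to 0.12 on WT array 4, with a median of 0.06. The 11 hair shaft keratins, which form the hard fibre, had excesses of -0.12 to 0.20, with a median of 0.05. None of either class was 1.5-fold above the other arrays. Krt25, Krt26, Krt28, Krt72 and Krt74 of the inner root sheath had means under the 25th percentile. So did Krt32, Krt39, Krt84 and Krt86 of the hair shaft, and whether these dim probes were above background is not known. The same held for the hair keratin-associated proteins, which crosslink hair keratin: 0 of 44 measured were 1.5-fold higher, and their median excess was 0.03. Of the 6 hair follicle genes listed apart from keratins, 0 were 1.5-fold higher, with a median of 0.02. Among them Msx2, a homeobox factor of the hair follicle, had the largest absolute excess, -0.21, and its lowest level of the 8 arrays on WT array 4. Tchh, the trichohyalin of the inner root sheath, had an excess of 0.14.

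The 4 measured keratins of stressed skin and of the follicle wall had a median excess of 0.22, between the medians of the epidermal and hair classes. Of its members, Krt75 and Krt16 lay within the range of the hair shaft keratins. Krt17 was at 6.02, 5.72, 6.10 and 6.38 on the flox arrays, at 6.22, 6.23 and 6.06 on WT arrays 1 to 3 and at 6.64 on WT array 4. Krt79, a chain of the upper follicle and sebaceous duct, had an excess of 0.32, and Krt75 of the companion layer 0.13. Krt16, which pairs with the Krt6 chains in wounded epidermis, had an excess of -0.06. Mucosal and corneal keratins (Krt4, Krt12, Krt13 and Krt76) had excesses of -0.08 to 0.18. On WT array 4 a total of 11 keratins had their highest level of the 8 arrays, or 22.9% of 48, against 11.1% of all genes. They were Krt1, Krt5, Krt10, Krt14, Krt15, Krt17, Krt77, Krt79, Krt80, Krt86 and Krt222. Of the 43 keratins that were not 1.5-fold higher there, 6 had their highest level on it (14.0%), near the share of all genes. Krt15, Krt17 and Krt79 led the next array by 0.24, 0.27 and 0.18 log2. Krt80, Krt86 and Krt222 led it by only 0.01, 0.01 and 0.02.

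Keratin genes lie in a type I cluster on chromosome 11 and a type II cluster on chromosome 15, where 25 and 23 of the 48 were placed by the RefSeq table of GRCm38.p6 (Krt18, a type I gene, lies at the edge of the type II cluster). Among protein-coding genes Krt1 and Krt77 are direct neighbours, and both were raised on WT array 4. The other neighbours of the 5 raised genes were not. Krt10 lies between Krt28 (excess -0.07) and Krt12 (0.02), Krt14 between Krt9 (0.13) and Krt16 (-0.06), and Krt5 between Krt6a (0.18) and Krt71 (-0.07). Krt2 (-0.01) flanks Krt1 and Krt76 (-0.07) flanks Krt77 on their outer sides.

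The bases just before the annotated starts are shown for raised genes and for neighbours that were not raised, so that the promoters can be read side by side. They are the 80 bases upstream of the start, 5′ to 3′ on the gene's own strand, from RefSeq (GRCm38.p6). Capitals mark TATAAA or TATATA, core letters of a TATA box, searched on both strands. The motifs can overlap, as they do in Krt10.
Krt5, chr15:101712906-101712985, minus strand, raised: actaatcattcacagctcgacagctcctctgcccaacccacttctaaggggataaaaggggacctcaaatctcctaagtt
Krt14, chr11:100206031-100206110, minus strand, raised: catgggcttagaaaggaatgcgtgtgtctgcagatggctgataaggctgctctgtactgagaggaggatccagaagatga
Krt10, chr11:99389365-99389444, minus strand, raised: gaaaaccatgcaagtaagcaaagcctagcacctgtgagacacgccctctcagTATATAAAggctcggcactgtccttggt
Krt77, chr15:101869706-101869785, minus strand, raised: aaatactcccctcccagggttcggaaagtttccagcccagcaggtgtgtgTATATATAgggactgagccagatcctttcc
Krt28, chr11:99374904-99374983, minus strand, not raised: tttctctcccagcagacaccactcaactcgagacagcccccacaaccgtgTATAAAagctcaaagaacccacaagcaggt
Krt12, chr11:99422260-99422339, minus strand, not raised: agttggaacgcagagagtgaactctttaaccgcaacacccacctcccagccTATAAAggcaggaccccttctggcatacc
Krt76, chr15:101892921-101893000, minus strand, not raised: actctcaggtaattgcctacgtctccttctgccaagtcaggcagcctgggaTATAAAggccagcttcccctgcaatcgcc

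Of the 48 keratins, 35 had an entry in the promoter table, with 36 windows in all. TATAAA was in 14 of these windows (38.9%) and TATATA in 8 (22.2%), and 19 (52.8%) held at least 1 of them. Over all 32851 promoter windows of the same length the shares were 4.75%, 1.88% and 6.05%. In the sequences above, the match began 28 bases before the start in Krt10, 30 in Krt77 and Krt28, and 29 in Krt12 and Krt76. Among raised genes with an entry, Krt10 and Krt77 held these letters and Krt5 and Krt14 did not. Only exact letters were searched, so a near match such as the ataaaa in the Krt5 window was not counted. Among neighbours within the naming rule that had an entry and were not raised, Krt28, Krt12, Krt76, Krt71 and Krt2 held them. Krt9 and Krt16 are the rest of these neighbours: Krt9 did not hold them, and Krt16 had no entry. Krt6a, outside the rule, was not looked up. Krt1, raised, is named only. A match describes the sequence and is not shown to be a used site.

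Other genes of the epidermis were higher on the same array, above all those of its outer layers. The lists were chosen with earlier results of these data known, so the counts describe this array only. Of 25 measured genes of the cornified envelope and granular layer, 12 were at least 1.5-fold above the other arrays on WT array 4 and 0 were as far below, with a median excess of 0.52; over all genes the shares were 0.289% above and 0.0658% below. Krtdap, a secreted keratinocyte differentiation protein, had an excess of 2.30, Elovl4, which makes the very long fatty acids of the skin barrier, 1.67, Lor, the cornified envelope protein loricrin, 2.83-fold, and Asprv1, a protease that processes filaggrin, 1.44. Members that did not follow include Tgm1, the envelope crosslinking enzyme (0.01), Ivl, involucrin (0.17), and Calml3 (-0.08). Of 12 measured desmosome genes, which anchor keratin filaments at cell junctions, 3 passed the fold: Perp (2.05), Dsp (1.36), the plakin that binds the filaments, and Dsc3 (1.28), a desmosomal cadherin. The largest excess among the other desmosome genes was that of Pkp1 (0.33). Of 9 basal keratinocyte genes only Serpinb5 passed (2.11), with Col17a1, a hemidesmosome collagen, at 0.31, Trp63, the epidermal master regulator, at 0.29 and Cdh3 at -0.09.

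**Figure D3:**
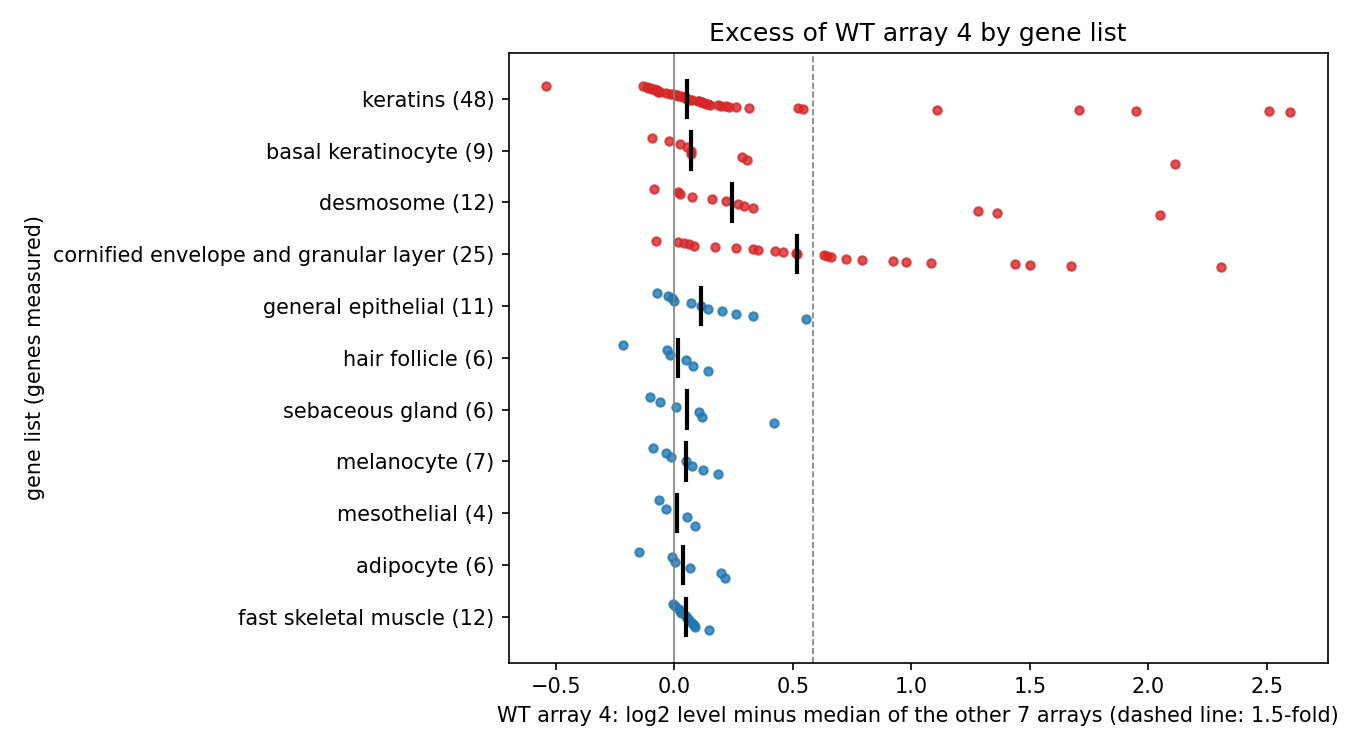
Log2 level on WT array 4 minus the median of the other 7 arrays (horizontal axis) for each measured gene of 11 lists, with a black bar at the list median and a dashed line at 1.5-fold. Points past the dashed line occur in the keratin list and in the 3 epidermal lists (red) but in none of the other 7 lists (blue).

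In the lists for other cell types and for epithelia in general, no gene was 1.5-fold higher there, although some lay above all other arrays. Of the 7 melanocyte genes measured, 0 passed 1.5-fold, with a median excess of 0.05; Tyrp1, a melanin enzyme, was at 0.19, above all other arrays, and Dct, another, at 0.12. Of 6 sebaceous gland genes 0 passed, with a median of 0.06 and the largest value for Scd3, a lipid desaturase (0.42), which was at 6.75 there and at most 6.52 elsewhere. Of 6 adipocyte genes 0 passed, with a median of 0.04; Plin1, the lipid droplet coat, was at 0.22, Adipoq at 0.20 and Lep at -0.15. Of 11 general epithelial genes, which epidermis also expresses in part, 0 passed, with a median of 0.12, but 4 had their highest level of the 8 arrays on WT array 4 (36.4%, against 11.1% of all genes). Esrp1, an epithelial splicing factor, was at 6.41 there and at 5.78 to 6.02 on the other arrays (excess 0.55). Cdh1, E-cadherin, was at 7.05 against 6.67 to 6.79 (excess 0.33), and Esrp2 and Epcam had excesses of 0.26 and 0.20. The 12 fast muscle genes had a median of 0.05, with Casq1, the calcium store protein, at 0.15 and Acta1 at 0.09. Of the 4 mesothelial genes, which line body cavities, 0 passed, with a median of 0.01, Wt1 at 0.09 and Msln at -0.07.

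These markers were read as a check for epidermis in the dissected muscle, as a description, because the lists were chosen with earlier results known. The summed picture, as the mean log2 level per array, was 7.12 on WT array 4 for the cornified envelope list against 6.29 to 6.62 on the other 7. For the desmosome list it was 7.15 against 6.54 to 6.77, and for the basal keratinocyte list 7.09 against 6.60 to 6.91. The desmosome value rested largely on Perp (excess 2.05), Dsp (1.36) and Dsc3 (1.28). The largest excess among the other desmosome genes was 0.33, and the list median was 0.24. The basal value rested on Serpinb5: without it, a choice made after seeing the data, the mean of the other 8 genes was 7.11 on WT array 4 and 7.17 on flox array 4, the highest. Per the labels every sample was dissected and trimmed. How epidermal RNA would have come into this sample was not tested, and none of the other 7 arrays showed a like excess of the 3 marker keratins: Krt5 reached at most 7.08 there, Krt10 7.25 and Krt77 7.21.

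The genes with the largest excess on WT array 4, apart from keratins, were largely of the same kind. The first 15 were Lce1c (2.70), Krtdap, Serpinb5, Perp, Lce1a1 (1.97), Dapl1 (1.91), Pof1b (1.85), Ly6g6c (1.72), Elovl4, Opn1mw (1.57), Lor, Asprv1, Kprp (1.36), Dsp and Dsc3. Lce1c and Lce1a1 are late cornified envelope proteins, and Kprp is a keratinocyte proline-rich protein. Opn1mw, a cone opsin, differed from the rest: it was high on the samples numbered 3 and 4 of both genotypes (7.77 and 7.87 in flox, 8.04 and 8.09 in WT) and low on those numbered 1 and 2 (6.20 and 6.52 in flox, 6.00 and 6.33 in WT). Of the 57 genes at least 1.5-fold higher on WT array 4, 5 were keratins and 16 belonged to the 3 epidermal lists.

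Among the simple-epithelial keratins, Krt8 and Krt18 varied most, and neither stepped up on WT array 4. Krt8 was at 9.33, 8.98, 9.52 and 9.91 on flox arrays 1 to 4 and at 9.49, 8.89, 9.48 and 8.94 on WT arrays 1 to 4. Krt18, its partner, was at 8.80, 8.42, 9.05 and 9.11 on the flox arrays and at 8.76, 8.23, 8.79 and 8.71 on the WT arrays. Both were highest on flox array 4 and lowest on WT array 2, and the genotypes overlapped. On WT array 2 Krt8 stood 0.59 and Krt18 0.56 below the median of the other arrays. Flox array 2 was low for both as well, with excesses of -0.50 and -0.37. Krt8 on WT array 2 was the only case of a keratin at least 1.5-fold below the median of the other arrays, where 0.106% of all genes were. The share of all genes that low was 0.177%, 0.116%, 0.0709% and 0.633% on flox arrays 1 to 4, and 0.116%, 0.182% and 0.0658% on WT arrays 1, 3 and 4, with 0 keratins among them. On WT array 4 the partners parted, with Krt8 at -0.54 and Krt18 at -0.08.

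The rest of this class hardly varied. Krt7, a chain of ducts and glands, was at 6.68, 6.68, 7.06 and 6.98 on the flox arrays and at 6.86, 7.05, 6.88 and 6.93 on the WT arrays. Krt19, which is found in many simple and some basal epithelia, was at 6.53, 6.52, 6.46 and 6.63 in flox and 6.61, 6.44, 6.72 and 6.56 in WT. Krt20, a keratin of gut lining, was at 5.56, 5.62, 5.68 and 5.75 in flox and 5.81, 5.75, 5.79 and 5.72 in WT. None of the 3 had WT array 4 as its highest or lowest array.

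Between the genotypes no keratin differed past the threshold. In limma 0 of 48 keratins had an adjusted p under 0.05 over all genes, as did 0% of all 19752 genes. An unadjusted limma p under 0.05 was found for 2 keratins, both lower in flox. Of all genes 4.12% had one in either direction, 353 higher in flox and 460 lower. The smallest adjusted p of a keratin was 0.900. The 5 keratins with the smallest unadjusted limma p were Krt25, Krt39, Krt23, Krt4 and Krt20. Krt25, an inner root sheath chain, was at 5.79, 5.86, 5.93 and 5.96 in flox and at 6.20, 6.06, 6.03 and 6.03 in WT. It was the only keratin whose genotypes did not overlap, with every flox array below every WT array, as in 1.1% of all genes. The reverse, every flox array above every WT array, held for 0 keratins and 0.992% of all genes. Against WT arrays 1 to 3 alone, Krt25 and Krt20 were lower on every flox array, as were 2.09% of all genes, and 0 keratins were higher on every one, as were 2.25% of all genes. Its difference, flox minus WT, was -0.19 (SE 0.07, n = 4 and 4, limma adjusted p 0.900, unadjusted 0.0138).

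The other 4 of these genes overlapped between the full groups. Krt39, a hair shaft chain, was at 5.39, 5.61, 5.72 and 5.91 in flox and 5.94, 5.80, 5.95 and 5.84 in WT, a difference of -0.22 (SE 0.10). Krt23, an acidic chain of several epithelia, was at 6.12, 6.18, 6.26 and 6.41 in flox and 6.57, 6.39, 6.25 and 6.52 in WT, a difference of -0.19 (SE 0.09). Krt4, a mucosal chain, was at 5.88, 5.97, 5.96 and 6.26 in flox and 6.31, 6.08, 6.12 and 6.27 in WT, a difference of -0.18 (SE 0.09). Krt20 differed by -0.12 (SE 0.06). All of these are small beside the step on WT array 4.

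The largest genotype differences were those of the epidermal keratins, and they rested on that array. Krt10 had a mean of 7.04 ± 0.20 (SD, n = 4) in flox and 7.79 ± 1.25 in WT, a difference of -0.75 (SE 0.48, limma adjusted p 0.900). Without WT array 4 the WT mean was 7.16 ± 0.04 (SD, n = 3) and the difference -0.13 (SE 0.10, limma adjusted p 0.940). Krt1 differed by -0.73 (SE 0.50) and by -0.08 without WT array 4 (SE 0.13), Krt77 by -0.62 (SE 0.36) and by -0.14 (SE 0.09), and Krt14 by -0.34 (SE 0.22) and by -0.08 (SE 0.11). Krt5 differed by -0.43 (SE 0.35), and without WT array 4 the direction turned, to 0.01 (SE 0.13). Krt8 and Krt18 were higher in flox, by 0.24 (SE 0.20) and 0.22 (SE 0.16), and by 0.15 and 0.25 without WT array 4. Leaving out flox array 2 gave 0.39 for Krt8 and 0.36 for Krt18, and leaving out flox array 4 gave 0.08 and 0.13. None of these differences passed limma's test after adjustment over all genes; the difference of Krt18 without flox array 2 had an unadjusted limma p of 0.0271 (adjusted p 1.00). Without WT array 4, limma again called 0 keratins and 0% of all genes. Krt25 alone, lower in flox, had an unadjusted limma p under 0.05, as did 3.4% of all genes (309 higher in flox, 363 lower).

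**Figure D4:**
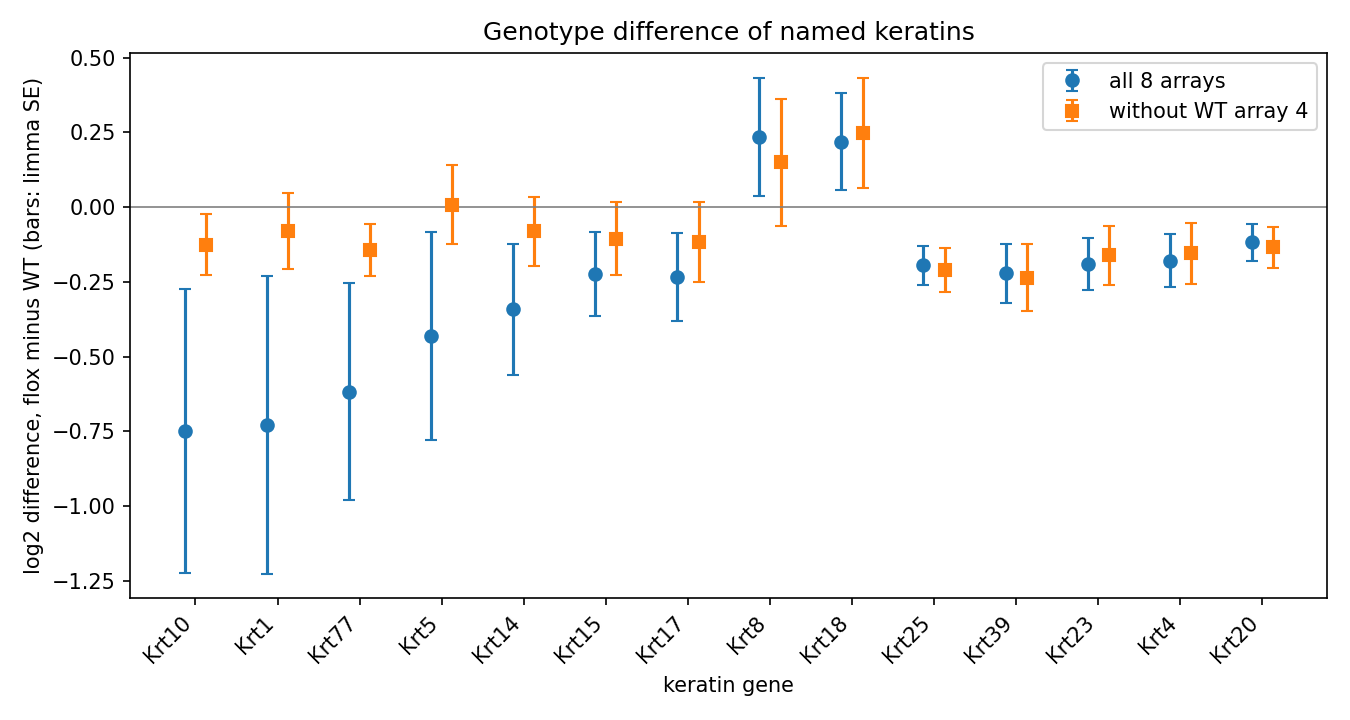
Log2 difference, flox minus WT, of 14 named keratins, with limma standard errors as bars, from all 8 arrays (circles) and without WT array 4 (squares). The circles of Krt10, Krt1 and Krt77 lie at -0.75, -0.73 and -0.62, and their squares at -0.13, -0.08 and -0.14.

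A smaller shift ran through the dim keratins as a whole. Of the 48 keratins, 40 had a lower mean in flox (42 without WT array 4, 37 after quantile normalization and 40 after median centring), with a median difference of -0.10. The median was -0.06 after quantile normalization, -0.05 without flox array 1 (35 of 48 lower) and -0.05 without flox array 2 (39 lower). Over the 4 keratins brighter than the 50th percentile the median was 0.11, the opposite direction, and it rested on the partners Krt8 and Krt18. Their means were 9.44 and 8.84 in flox and 9.20 and 8.62 in WT. Of the others, Krt80 was at 8.03 in both groups, and Krt87 was lower in flox (7.99 against 8.05). Genes of low signal leaned the same way: 69.5% of the 9721 genes under the 50th percentile were lower in flox, with a median of -0.04, against 83.3% of the keratins and 55.9% of all genes (median -0.01). Per array, the median excess over the 48 keratins was -0.22, -0.19, -0.05 and 0.17 on flox arrays 1 to 4 and 0.08, -0.01, 0.04 and 0.06 on WT arrays 1 to 4. For the genes under the 50th percentile it was -0.12, -0.06, -0.03 and 0.10 in flox and 0.04, 0.03, 0.00 and 0.01 in WT. Flox arrays 1 and 2 were low and flox array 4 high in both sets, by more in the keratins, and the part of the array-wide shift in the keratin differences was not tested. Without flox array 4 the median difference was -0.17, and 21 of 48 keratins, all lower, had an unadjusted limma p under 0.05. Of all genes 19.7% did in either direction, 1641 higher in flox and 2258 lower. After adjustment 0 keratins passed, as against 0.0101% of all genes.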

How the data were processed

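Each sample's RNA (TriZol) was amplified and read on 1 array, an Affymetrix Mouse Gene 1.0 ST. The authors deposited intensity values made with RMA in Affymetrix Power Tools, per the submitters' processing notes, here on a linear scale (5.81 to 19080). For versions, genome build and row filters: not given in the sources used here. Log2 was taken without a pseudocount. Of 24922 rows, 21425 had 1 symbol, 1399 several and 2098 none in the platform annotation. Of the former, 21347 had a gene ID in the RefSeq table, and 0 symbols changed. The brightest row per gene was kept, with no filter on dim rows, because a mean over 8 arrays can pass a dim gene through 1 high array. A filter at the 25th percentile removes 21 of the 48 keratins, Krt1 and Krt14 among them. At most 14 values were identical between any pair of arrays. The genotype test was limma (version 3.58.1, R 4.3.3) on group alone, with Benjamini-Hochberg adjustment over all 19752 genes. The fit was also run on simulated data with independent noise per gene and array. That simulation held no shift shared by the genes of an array, so it did not test the fit under such a shift. The number of arrays limits the precision. Keratin classes and gene lists were chosen with earlier results of these data known. Values are given for the 3 marker keratins, keratins 1.5-fold above the other arrays on any array, simple-epithelial keratins, the 5 of smallest p, the 15 other genes of largest excess on WT array 4, and up to 4 genes per list by absolute excess. Genes named as not following (Tgm1, Ivl and Calml3), and Krt2, Krt9, Krt15 to Krt17, Krt75, Krt78 and Krt79, were picked after their values were seen. Krt88, in no class list, was counted with the other keratins. Alternatives were filters at the 25th and 50th percentile, quantile normalization, median centring, the mean of a gene's rows, a pseudocount of 16, robust empirical Bayes with a trend, the sample number as a block, another reference for WT array 4, and leaving out each array.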

Additional observations from a re-analysis of the deposited data

Results flagged for a closer look

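Each keratin was checked in each genotype for an array set apart from the other 3, and 11 of 96 checks met the 95% limit of Dixon's test. Chance gives about 1 in 20 for independent checks. These checks share the same arrays, and the pattern on WT array 4 was already known. The count therefore cannot be compared with chance, and the flags only list arrays that stood apart. In WT the highest array, WT array 4, stood apart for Krt1 (8.12, next 5.56), Krt10 (9.66, next 7.20), Krt77 (9.03, next 7.19) and Krt5 (8.49, next 6.80). WT array 1 stood apart for Krt25 (6.20, next 6.06) and Krt12 (7.28, next 7.18), and WT array 2 for Krt84 (6.18, next 6.03). WT array 2 was the lowest for Krt18 (8.23, next 8.71). In flox, array 4 was the highest for Krt77 (7.21, next 6.92), Krt9 (6.01, next 5.59) and Krt42 (7.14, next 6.85). The gaps of Krt1, Krt10, Krt77 and Krt5 on WT array 4 exceeded 1 log2, and the remaining gaps were under 0.5 log2.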

How the results depend on the processing

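The count of keratins past the limma threshold was 0 under every alternative run. Over all genes it was 0 except without flox array 4, where 2 genes passed (range 0 to 2 over the fits without 1 array). The same 5 keratins (Krt1, Krt5, Krt10, Krt14 and Krt77) were 1.5-fold higher on WT array 4 under 4 alternatives. These were quantile normalization, median centring, a pseudocount of 16 and a reference of the other 3 WT arrays. The excess of Krt10 ran from 2.38 to 2.52. The mean of a gene's rows could not change this result, because each keratin had 1 row. The filter at the 25th percentile left 3 of the 5, and the median excess of the suprabasal class became 1.95 over its 3 remaining members. That filter turned the median genotype difference of the simple-epithelial class from -0.05 to 0.086, and the filter at the 50th percentile gave 0.23 there and 0.11 over all keratins, in each case because fewer members were left. Of single keratins, Krt19 turned to 0.0012 with quantile normalization and Krt5 to 0.0088 without WT array 4 (range -0.62 to 0.0088). The median over all keratins ranged from -0.17 to -0.05 without 1 array. The samples of a number did not deviate together in every pair (r across genes of -0.05, 0.28, 0.21 and -0.00 for numbers 1 to 4), so the numbers were not taken as pairs. Between unlike numbers r ran from -0.29 (flox 3 with WT 2) to 0.23 (flox 3 with WT 4). Structure shared by several numbers across the genotypes was not tested. With the number as a replicate block 0 keratins and 0 genes passed, 6 keratins against 2 had an unadjusted p under 0.05, and the median over all keratins was -0.10.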

Other observations

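Late cornified envelope genes, proteins of the epidermal barrier that were in no list, were picked out after their values were seen. Of 18 measured genes whose symbol begins with Lce, 7 were at least 1.5-fold higher on WT array 4 than the median of the other arrays, where 0.289% of all genes were. Lce1c was at 5.83, 5.80, 6.23 and 6.60 on the flox arrays, at 6.20, 6.13 and 5.99 on WT arrays 1 to 3 and at 8.82 on WT array 4, a place above Krt1 in the ranking of all genes. Pof1b, an actin-binding protein of epithelial junctions, was at 4.40 to 4.73 on the other 7 arrays and at 6.33 on WT array 4. Of the 57 genes past the fold on that array, 29 were neither keratins, Lce genes nor members of the 3 epidermal lists.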
